A study of Danio rerio with 2 samples.

Results

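RNA-seq was examined for genes that had many reads in EGFP+ myeloid cells sorted from zebrafish melanoma and almost none in EGFP+ lymphocytes sorted from zebrafish thymus. A gene was a member if it had at least 100 CPM (reads per 1000000 reads on genes) in the myeloid library and at most 3 reads in the thymus library. Of 32520 genes, 75 met both limits. These limits used the counts of both libraries, so the contrast between the libraries at these genes is a description and no test was made of it. Each population was measured in 1 library, with no replicate, and no p-value is given.

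In both populations EGFP was driven by a region upstream of *cd8a*. The myeloid cells came from melanoma of Tg(*cd8a*:EGFP;BRAFV600E;p53null;nacrenull) fish, labelled as 6 weeks old. The labels name a treatment with SB431542, an inhibitor of TGF-β receptors, for 24 h. The study's own description of the sequenced myeloid cells does not mention this treatment. The thymus lymphocytes came from Tg(*cd8a*:EGFP) fish, also labelled as 6 weeks old, without treatment, and the labels describe them as positive for lck:mCherry as well. The number of fish behind each library is not given in the sources used here. Cell type, tissue, tumor, genotype and treatment differed together and cannot be told apart. In sorted bulk samples, fewer cells of a type and less RNA per cell cannot be told apart either. The myeloid library held 39446435 reads on genes and the thymus library 32975680, so that 3 reads corresponded to 0.0761 CPM in myeloid cells and 0.0910 CPM in thymus lymphocytes.

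The nacre mutation removes the function of *mitfa*, the transcription factor that melanophores need, and in this type of model the tumors arise from melanocytes in which a *mitfa* minigene restores it. Melanophores make melanin in melanosomes with enzymes of the tyrosinase family, which act on tyrosine and its oxidation products. Phagocytes such as macrophages engulf dead cells and debris, and tumor macrophages are known to take up pigment. Their development depends on the transcription factor PU.1, encoded by *spi1*.

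Pigment-cell genes took most of the members' reads. The 75 members together held 1439863 myeloid reads, or 3.65% of that library (95% exact Clopper-Pearson interval 3.644 to 3.656), and 91 thymus reads. By known function, 13 members were pigment-cell genes, 6 were phagocyte genes and 56 were neither. The pigment-cell members held 56.7% of the members' myeloid reads, the phagocyte members 3.06% and the others 40.3%. A single pigment gene, *tyrp1*, weighed heavily in this: without it the 74 remaining members held 1.97% of the myeloid library, and the pigment-cell members 0.391%. Although the library is labelled as myeloid, the genes chosen by this rule were therefore mainly not phagocyte genes, and they are called here by the rule and not by a cell type. The intervals cover counting error only, because amplification without molecular identifiers can give several reads of one molecule.

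Of the 1972 genes at 100 CPM or more in the myeloid library, the 75 members were 3.80%, whereas 3 thymus reads or fewer were found for 46.0% of all 32520 genes. The share of members was 4.38% between 100 and 200 CPM (42 of 958 genes), 3.59% between 200 and 500 CPM (25 of 696), 2.39% between 500 and 1000 CPM (5 of 209) and 2.75% at 1000 CPM or more (3 of 109). The members' median was 178.8 CPM in the myeloid library, with a range of 100.3 to 16778 CPM. In the thymus library 18 members had no read, 31 had 1, 18 had 2 and 8 had 3.

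**Figure D1:**
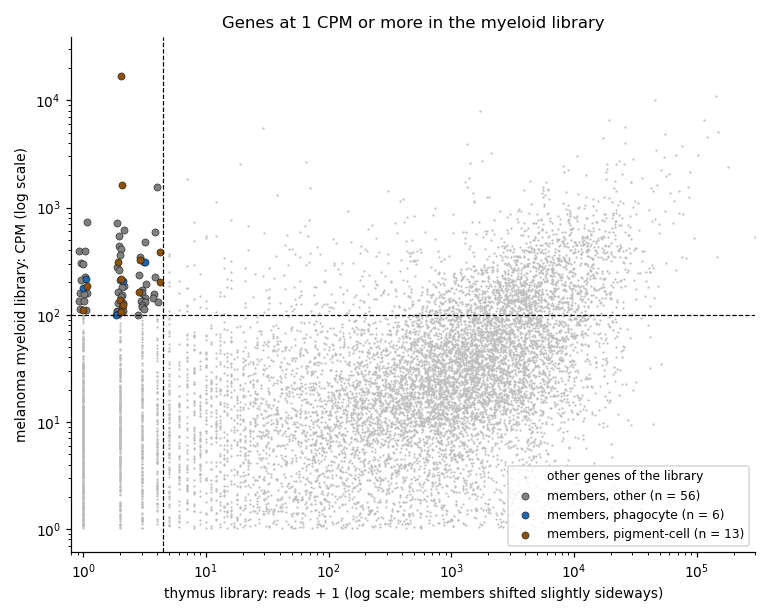
Every gene at 1 CPM or more in the myeloid library, with its myeloid CPM (vertical, log scale) against its thymus reads plus 1 (horizontal, log scale). Colored points are the 75 members, dashed lines the limits of 100 CPM and 3 reads, and *tyrp1* is the highest member at 16778 CPM.

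Among the pigment-cell members, 7 belong to melanin synthesis and the melanosome. *tyrp1* (ENSDARG00000056151), which encodes a melanosomal enzyme of the tyrosinase family, had 661837 reads (16778 CPM) in myeloid cells and 1 read in thymus lymphocytes. It ranked 2 among all genes of the myeloid library, and its ratio of CPM was 553270 with a counting interval of 99301 to 21853026. *dct* (ENSDARG00000006008), dopachrome tautomerase, had 64531 reads (1636 CPM) in myeloid cells and 1 read in thymus lymphocytes. *dct* ranked 56 in the myeloid library, and the single thymus read of each gene is within the limit that a count of 0 allows.

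*mlph* (ENSDARG00000070991), melanophilin, which links melanosomes to their actin motor, had 386.1 CPM in myeloid cells and 3 reads in thymus lymphocytes. *zgc:91968* (ENSDARG00000011076), a gene of the melanophore list, had 313.6 CPM in myeloid cells and 1 read in thymus lymphocytes. *slc7a11* (ENSDARG00000071384), a cystine transporter that affects pheomelanin in mice, had 200.1 CPM in myeloid cells and 3 reads in thymus lymphocytes. These 3 genes lay far below *tyrp1* and above the members' median of 178.8 CPM. *rab32* (ENSDARG00000029036), a GTPase that brings enzymes to melanosomes, had 136.1 CPM in myeloid cells, and *slc24a5* (ENSDARG00000024771), the ion exchanger of the golden mutant, had 122.2 CPM. Each had 1 thymus read.

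The other 6 pigment-cell members act elsewhere in pigment cells. *tfap2e* (ENSDARG00000008861), an AP-2 transcription factor of zebrafish melanophores, had 325.4 CPM in myeloid cells and 2 reads in thymus lymphocytes. *pah* (ENSDARG00000020143), phenylalanine hydroxylase, which makes tyrosine, had 186.8 CPM in myeloid cells and no thymus read, at least 2053-fold higher against 3 reads. *akr1b1* (ENSDARG00000006215), an aldo-keto reductase of the iridophore list, had 164.7 CPM in myeloid cells and 2 thymus reads. *gja4* (ENSDARG00000070357), a connexin needed for the stripes of zebrafish, had 106.9 CPM in myeloid cells and 1 thymus read. The melanophore, xanthophore and iridophore lists were each represented among these 6 genes.

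Some pigment-cell members are also known from macrophages, among them *gpnmb* and *tfec*. The class as a whole does not mean that its genes are particular to pigment cells. *gpnmb* (ENSDARG00000062688), a glycoprotein of melanosomes that macrophages also make, had 217.6 CPM in myeloid cells and 1 read in thymus lymphocytes. *tfec* (ENSDARG00000098745), an MITF-family transcription factor needed for zebrafish iridophores and found in mammalian macrophages, had 109.9 CPM in myeloid cells and no thymus read, at least 1208-fold higher. Both were counted as pigment-cell genes because the purine and iridophore list holds them.

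**Figure D2:**
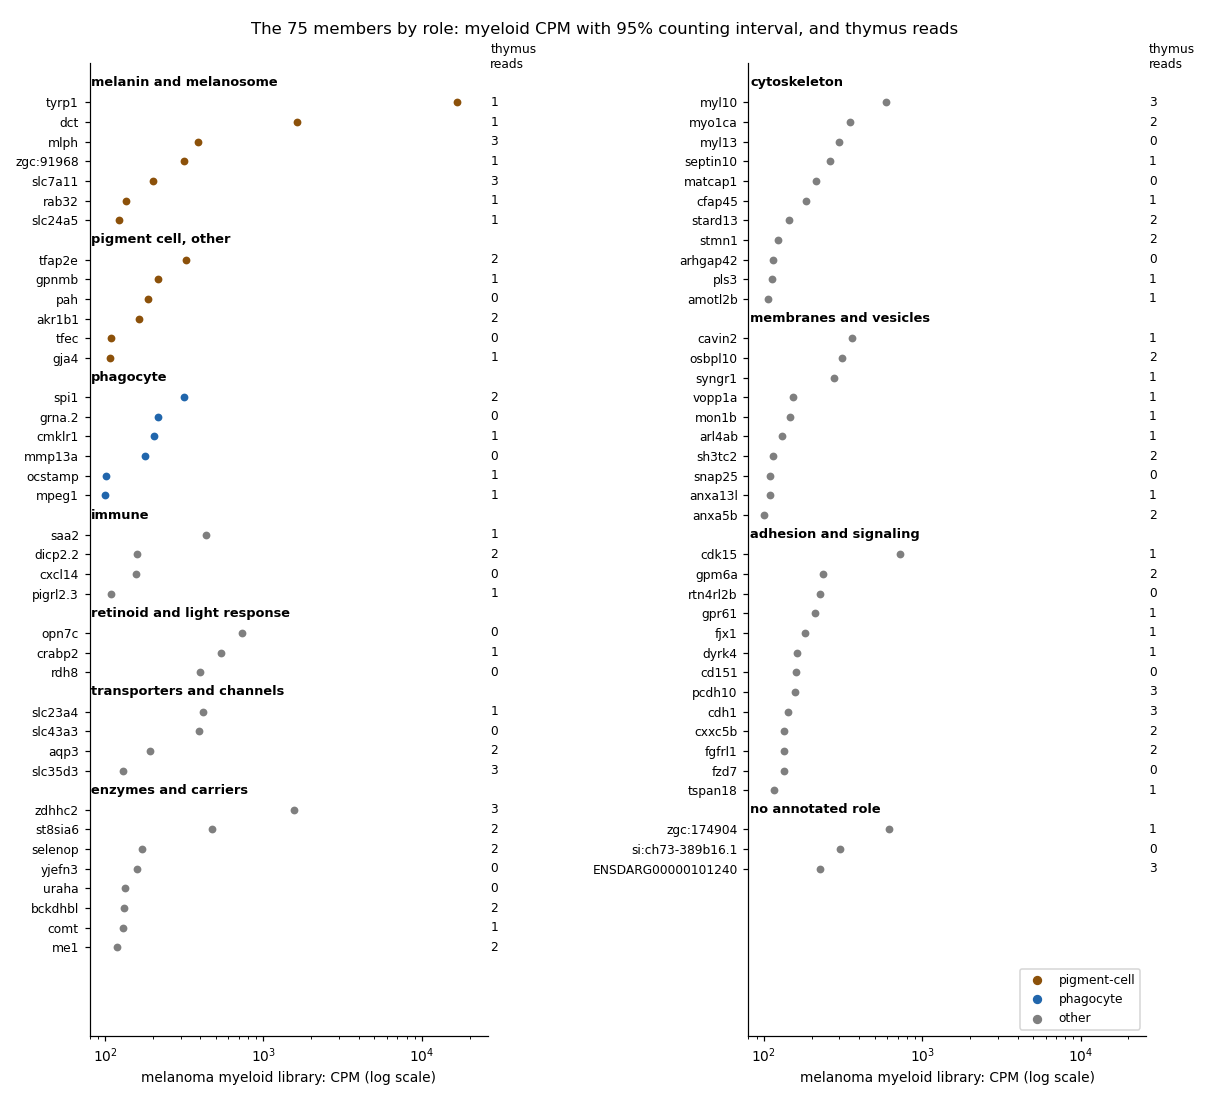
Myeloid CPM of each of the 75 members (horizontal, log scale), grouped by role and colored by class, with the 95% counting interval as a line that is mostly hidden by the point and the thymus reads in the right margin. *tyrp1* stands apart at 16778 CPM, and 42 of the members lie under 200 CPM.

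The 6 phagocyte members ranged from 100.3 to 313.7 CPM in the myeloid library, with 5 thymus reads among them. *spi1* (ENSDARG00000000767), which encodes PU.1, had 12374 reads (313.7 CPM) in myeloid cells and 2 reads in thymus lymphocytes, a ratio of 5172 (counting interval 1431 to 42712). *cmklr1* (ENSDARG00000090890), the chemerin receptor that guides macrophages and dendritic cells, had 204.5 CPM in myeloid cells and 1 thymus read. *mpeg1* (ENSDARG00000055290), which encodes the macrophage pore-forming protein perforin-2, had 100.3 CPM in myeloid cells and 1 thymus read, which put it last of the 75. Another gene named *mpeg1* is described with the copies.

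*grna.2* (ENSDARG00000088641), a granulin, had 216.9 CPM in myeloid cells and no thymus read, at least 2384-fold higher. *mmp13a* (ENSDARG00000012395), a collagenase counted from the neutrophil list, had 178.8 CPM in myeloid cells and no thymus read, at least 1965-fold higher. *ocstamp* (ENSDARG00000022139), a protein of cell fusion in osteoclasts and macrophages, had 102.2 CPM in myeloid cells and 1 thymus read. None of the 6 came near the levels of *tyrp1* or *dct* in reads.

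Among the 56 members that are neither pigment-cell nor phagocyte genes, 3 belong to retinoid metabolism and the response to light. *opn7c* (ENSDARG00000030867), a non-visual opsin of fish, had 28781 reads (729.6 CPM) in myeloid cells and none in thymus lymphocytes, at least 8020-fold higher against 3 reads. *crabp2* (ENSDARG00000030449), a carrier of retinoic acid, had 540.5 CPM in myeloid cells and 1 thymus read. *rdh8* (ENSDARG00000028048), a retinol dehydrogenase known from photoreceptors, had 396.1 CPM in myeloid cells and no thymus read, at least 4354-fold higher. Together these 3 genes held 4.56% of the members' reads, more than the 6 phagocyte genes with 3.06%.

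The 8 enzymes and carriers of metabolism were led by *zdhhc2* (ENSDARG00000034757), a protein palmitoyltransferase, which had 61426 reads (1557 CPM) in myeloid cells and 3 reads in thymus lymphocytes. It was the third of the 3 members above 1000 CPM. *st8sia6* (ENSDARG00000021195), a sialyltransferase, had 476.7 CPM in myeloid cells and 2 thymus reads. The other 6 lay between 118.6 and 171.5 CPM with 0 to 2 thymus reads: *selenop*, a selenium carrier, *yjefn3*, *uraha*, an enzyme of uric acid breakdown, *bckdhbl*, named for a subunit of branched-chain amino acid breakdown, *comt*, which methylates catechols, and *me1*, malic enzyme.

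The 4 transporters and channels included *slc23a4* (ENSDARG00000052497), of the ascorbate and nucleobase transporter family, with 415.0 CPM in myeloid cells and 1 thymus read. *slc43a3* (ENSDARG00000057949), a purine nucleobase transporter in mammals, had 394.4 CPM in myeloid cells and no thymus read, at least 4335-fold higher. *aqp3*, a water and glycerol channel, had 193.7 CPM and *slc35d3*, of the nucleotide sugar transporter family, 130.4 CPM in myeloid cells, with 2 and 3 thymus reads. The last of these sits at the read limit.

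Cytoskeletal genes made up 11 members and held 6.83% of the members' reads. *myl10* (ENSDARG00000062592) and *myl13* (ENSDARG00000042245), both myosin light chains, had 587.4 and 298.2 CPM in myeloid cells, with 3 and 0 thymus reads. *myo1ca* (ENSDARG00000020924), an unconventional myosin, had 348.8 CPM in myeloid cells and 2 thymus reads. *septin10*, a filament-forming GTPase, had 263.1 CPM and *matcap1*, a protease that trims tubulin, 212.9 CPM. The remaining 6 lay between 105.9 and 184.2 CPM, with 0 to 2 thymus reads: *cfap45* of cilia, *stard13*, *arhgap42*, the microtubule destabilizer *stmn1*, the actin bundler *pls3* and the junction protein *amotl2b*.

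Membrane and vesicle genes made up 10 members. *cavin2* (ENSDARG00000071196), a coat protein of caveolae, had 358.1 CPM in myeloid cells and 1 thymus read. *osbpl10* (ENSDARG00000040027), a lipid transfer protein, had 310.9 CPM in myeloid cells and 2 thymus reads, and *syngr1* (ENSDARG00000002564), a vesicle membrane protein, had 276.8 CPM in myeloid cells and 1 thymus read. The other 7 lay between 100.5 and 153.5 CPM: *vopp1a*, *mon1b*, which activates a late-endosomal GTPase, *arl4ab*, *sh3tc2*, known from Schwann cells, *snap25*, a SNARE of secretion, and the annexins *anxa13l* and *anxa5b*.

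Adhesion and signaling genes made up 13 members. *cdk15* (ENSDARG00000006093), a cyclin-dependent kinase, had 722.5 CPM in myeloid cells and 1 thymus read. *gpm6a* had 236.9 CPM, *rtn4rl2b*, a Nogo receptor homolog, 224.9 CPM and *gpr61*, an orphan receptor, 211.5 CPM, with 0 to 2 thymus reads. *cdh1* (ENSDARG00000102750), E-cadherin, which joins epithelial cells, had 142.2 CPM in myeloid cells and 3 thymus reads. The other 8 lay between 115.9 and 182.9 CPM with 0 to 3 thymus reads: *fjx1*, *dyrk4*, *cd151* and *tspan18*, both tetraspanins, *pcdh10*, a protocadherin, *cxxc5b*, *fgfrl1* and the Wnt receptor *fzd7*.

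Immune genes outside the phagocyte lists were 4 members. *saa2* (ENSDARG00000045999), a serum amyloid A acute phase protein, had 434.0 CPM in myeloid cells and 1 thymus read. *dicp2.2* (ENSDARG00000099539), of a fish family of immunoglobulin-domain receptors, had 159.3 CPM in myeloid cells and 2 thymus reads, and *cxcl14*, a chemokine, had 156.9 CPM in myeloid cells and no thymus read. *pigrl2.3*, a receptor-like immunoglobulin gene of fish, had 109.3 CPM in myeloid cells and 1 thymus read. The last 3 of the 75 members, *zgc:174904*, *si:ch73-389b16.1* and ENSDARG00000101240, had 613.0, 302.2 and 225.9 CPM in myeloid cells and no annotated role.

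Genes close to the limits included further pigment and phagocyte genes. Just inside the limit of 100 CPM were *mpeg1*, *anxa5b*, *ocstamp*, *amotl2b* and *gja4*, between 100.3 and 106.9 CPM. Just outside it, with 3 thymus reads or fewer, were *cttn* (98.84 CPM), *si:ch211-198m17.1* (98.64 CPM), *c1qc* and *hoxd9* (97.78 CPM each) and *c1qb* (97.73 CPM). *c1qb* and *c1qc* encode chains of complement C1q, which macrophages make, and neither had a thymus read.

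On the side of the thymus reads, the 8 members at the limit of 3 reads were *zdhhc2*, *myl10*, *mlph*, ENSDARG00000101240, *slc7a11*, *pcdh10*, *cdh1* and *slc35d3*. A further 6 genes at 100 CPM or more had 4 reads, among them *gpr143*, a receptor of melanosomes, with 366.1 CPM in myeloid cells, the other *mpeg1* gene with 250.4 CPM and *npc2*, a lysosomal cholesterol carrier, with 107.5 CPM. *mitf* had 208.0 CPM in myeloid cells and 5 thymus reads, and *slc45a2*, a melanosomal transporter, 176.9 CPM and 6. *mfap4*, a zebrafish macrophage marker, had 291.1 CPM in myeloid cells and 7 thymus reads. Some abundant pigment genes were left out by more reads, such as *pmela*, the melanosome fibril protein, with 5484 CPM in myeloid cells and 28 thymus reads. Abundant phagocyte genes were left out too, such as *lgmn* with 2604 CPM in myeloid cells and 1432 thymus reads. At 100 CPM or more in myeloid cells were 23 genes of the mononuclear phagocyte list, of which 3 were members. The melanophore list had 16 such genes, of which 8 were members.

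**Figure D3:**
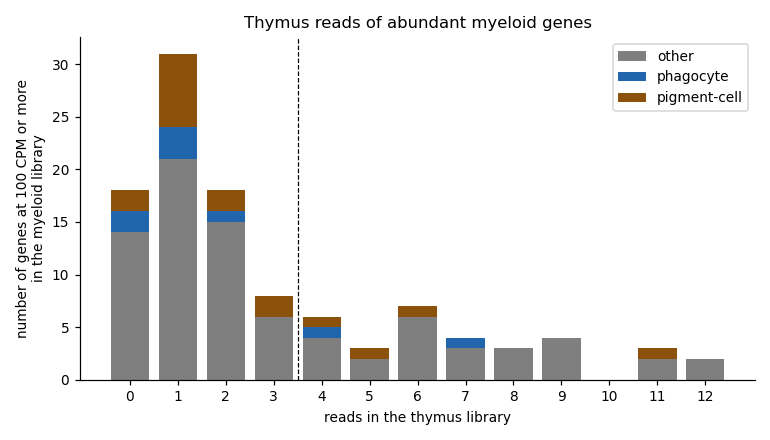
Number of genes at 100 CPM or more in the myeloid library (vertical) by their number of thymus reads (horizontal), colored by class. The dashed line is the limit of 3 reads, below which lie 18, 31, 18 and 8 members, and 6 genes lie at 4 reads.

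Low counts were also found for genes that cells share. Of 124 genes for ribosomal proteins and proteasome subunits, a set chosen after the counts were seen, 8 had at most 3 reads in myeloid cells and 4 had at most 3 in thymus lymphocytes. Libraries from 1 ng of RNA can lose transcripts, and which members lack thymus reads for that reason was not tested.

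Zebrafish keep many duplicated genes, and reads that map to several copies may be lost or misplaced. Another gene of the same name, or of a name differing only by a final a or b, was found for 32 members. Other endings, such as *tfap2a* beside *tfap2e*, were not searched. For 18 of them no such copy reached 1 CPM in either library, and for 26 none reached it in the thymus library. The other 6 had a copy at 1 CPM or more in thymus lymphocytes. *mon1b* is the clearest of these: the member had 146.2 CPM in myeloid cells and 1 read in thymus lymphocytes, whereas the copy ENSDARG00000077434 had no read in myeloid cells and 2687 reads (81.48 CPM) in thymus lymphocytes. *akr1b1* had the same shape, with a copy at no read in myeloid cells and 264 reads (8.006 CPM) in thymus lymphocytes.

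The copy of *stmn1* had 249.4 CPM in myeloid cells and 59.23 CPM in thymus lymphocytes, so the gene name was present in both libraries. *tspan18*, *stard13* and *mmp13a* had copies at 3.518, 1.971 and 2.214 CPM in the thymus library, the last of them *mmp13b*. In the myeloid library 11 members had a copy at 1 CPM or more, and for *stmn1* and *mpeg1* the copy had more myeloid reads than the member. *mpeg1* (ENSDARG00000043093) had 250.4 CPM in myeloid cells and 4 thymus reads, just outside the limit. *tyrp1* had a copy with 18.35 CPM in myeloid cells and no thymus read. When reads were summed over genes of one name, 63 members remained and 12 were lost: *gpm6a*, *akr1b1*, *rdh8*, *rab32*, *stmn1*, *mon1b*, *mpeg1*, *arhgap42*, *tspan18*, *cavin2*, *stard13* and *pcdh10*. Of these, *mon1b*, *stmn1*, *akr1b1*, *tspan18* and *stard13* are the ones whose copy reached 1 CPM in the thymus library. The sum joined identical names only, and copies with another final letter were not added. Thus *spi1* and *mmp13a* remained, although *spi1a* had 7 and *mmp13b* 73 thymus reads, each above the limit of 3.

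**Figure D4:**
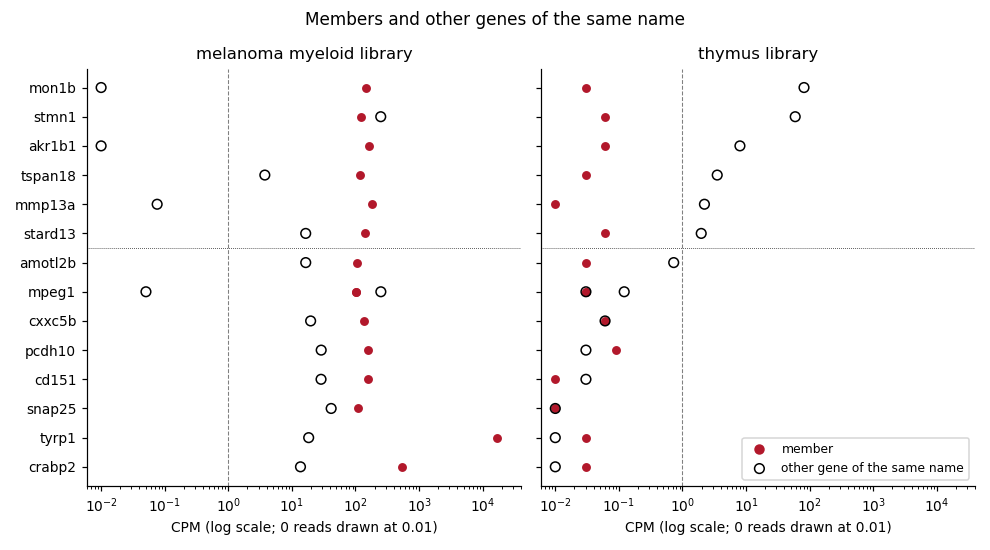
CPM of 14 members (filled) and of the other genes of the same name (open), in the myeloid library (left) and the thymus library (right), on log axes with 0 reads drawn at 0.01. Members shown are those whose copy reached 1 CPM (dashed line) in at least one library, and the 6 above the dotted line have a copy at 1 CPM or more in the thymus library, up to 81.48 CPM for *mon1b*.

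A name stem, such as *rab*, *slc7a* or *gpr*, can hold many genes and need not be one gene family. Other genes of the same stem were found for 56 members. For 41 of them at least 1 other gene reached 1 CPM in the thymus library, and for 15, among them *tyrp1*, *crabp2*, *cavin2* and *cmklr1*, none did. *pls3*, also one of the 15, had 113.3 CPM in myeloid cells and 1 thymus read, whereas *lcp1*, the plastin of leukocytes, which has another name stem, had 151.2 CPM in myeloid cells and 1144 CPM in thymus lymphocytes. *septin7b* had 244.4 CPM in myeloid cells and 517.0 CPM in thymus lymphocytes, beside *septin10* at 263.1 CPM and 1 thymus read. *grna*, a granulin like *grna.2*, had 141.4 CPM in myeloid cells and 56.83 CPM in thymus lymphocytes. For *spi1*, one of the 15, the paralog *spi1a* had no read in myeloid cells and 7 reads in thymus lymphocytes.

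In the RefSeq gene order of GRCz12tu, from which no coordinates were used, 46 members were matched to 1 entry each, and a single pair of members, *bckdhbl* and *st8sia6*, lay side by side. Of 53 nearest neighbors with a value that were not members, 11 had 3 thymus reads or fewer (20.8%), and 8 of those had 3 or fewer in both libraries. A further 5 had 4 or 5 thymus reads. Over all genes the share with 3 thymus reads or fewer was 46.0%, but the neighbors had to be protein-coding and matched by name, so these shares are not over the same kind of genes. *dicp2.1*, next to *dicp2.2* and of the same family, had 50.14 CPM in myeloid cells and no thymus read. *cnot7*, next to *zdhhc2*, had no read in myeloid cells and 204 reads in thymus lymphocytes.

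Marker lists placed the members beside other genes of the same cell types. Of 15139 genes that reached 1 CPM in at least one of the libraries, 15.8% were at least 10-fold higher in the myeloid library and 31.3% at least 10-fold lower, with a median log2 ratio of −0.80. Of 31 melanophore genes at 1 CPM or more, 27 were at least 10-fold higher and 1 was lower (median log2 ratio 9.03), and 8 of them were members. For members a 10-fold difference was fixed by the rule that chose them. The counts, medians and sums of the lists include the members and are descriptions only. The sum of the melanophore list was 36221 CPM in myeloid cells, of which the member *tyrp1* gave 16778 CPM, and 202.5 CPM in thymus lymphocytes. The list was not uniform, since *tyr*, the rate-limiting enzyme of melanin synthesis, had 5.324 CPM in myeloid cells and *oca2* had no read there.

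Other pigment lists were also mostly higher, with 8 of 13 pteridine and xanthophore genes, 10 of 17 purine and iridophore genes and 10 of 14 neural crest genes at least 10-fold higher, against 1, 3 and 1 at least 10-fold lower. The neural crest list shares *crestin*, *tfap2a* and *sox10* with the melanophore list. The pteridine and xanthophore list shares *csf1ra*, 1 of its 8 higher genes, with the mononuclear phagocyte list. Of 71 mononuclear phagocyte genes, 42 were at least 10-fold higher and 4 lower (median 5.33), with 3 members, and the sum was 11391 CPM in myeloid cells and 3402 CPM in thymus lymphocytes. Of 11 neutrophil genes 8 were at least 10-fold higher and none lower, with a sum of 1273 CPM in myeloid cells and 512.3 CPM in thymus lymphocytes. In myeloid cells *mmp9* had 440.0 CPM and *adam8a* 348.7 CPM, whereas *lyz* had 7.555 CPM. *mmp9* also had 132.0 CPM in thymus lymphocytes and was not one of the 8. The study reports that these cells did not express the neutrophil marker *mpx*. Of 10 dendritic cell genes none was at least 10-fold higher and 4 were lower (median −2.84), and no member was in that list. The lower genes were *cd74b*, *irf4*, *ccr7* and *ciita*. The study describes *id2*, *batf3*, *irf8* and *zbtb46*, but not *irf4*, as highly expressed in these myeloid cells. Its methods name FPKM, which is not on the scale of CPM. It regards the cells as similar to CD8+ dendritic cells of mice. For this it also cites *cd8a* without *cd8b*, the absence of *lck*, the dendritic shape and the uptake of ovalbumin. In myeloid cells *id2*, *irf8*, *batf3* and *zbtb46* had 41.42, 8.847, 6.591 and 3.372 CPM. In thymus lymphocytes they had 63.38, 1.395, 4.033 and 18.32 CPM. Of 18 T cell genes 16 were at least 10-fold lower in myeloid cells. *cd8a*, whose upstream region drives the EGFP, had 163 reads in myeloid cells and 1459 in thymus lymphocytes.

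Some genes of other cell types were higher as well. Of 13 keratinocyte genes 9 were at least 10-fold higher and 3 lower, with *cdh1* as the member, and the sum was 1465 CPM in myeloid cells and 627.3 CPM in thymus lymphocytes. In myeloid cells 18 of the 41 matched keratinocyte genes had no read, *krt17* among them. The highest there were *icn* with 547.6 CPM and *krt8* with 316.2 CPM, while *krt5* had 20.58 CPM and *epcam* 28.09 CPM. In thymus lymphocytes *cldni* was the highest with 420.6 CPM, against 21.45 CPM in myeloid cells. Of 12 muscle genes 4 were higher and 5 lower, with a sum of 2184 CPM in myeloid cells and 157.4 CPM in thymus lymphocytes. The actin gene *actc1b* gave 1374 CPM of the sum in myeloid cells. The muscle creatine kinase *ckma* had 473.7 CPM in myeloid cells, whereas 3 of 15 matched muscle genes had no read, *pvalb2* among them. Of 7 glia and neuron genes 4 were higher and 2 lower, with *snap25* as the member. The fibroblast, erythrocyte, endothelial and B cell lists had 7, 5, 4 and 3 genes at 1 CPM or more, of which 5, 3, 1 and 1 were higher and 1, 1, 3 and 0 lower, and held no member. The sort purity was over 90% according to the methods, and how much other cells contributed to the members' reads was not tested. Only 18 of the 75 members were in any list, 12 of them in a pigment or neural crest list and 4 in a phagocyte, dendritic cell or neutrophil list.

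**Figure D5:**
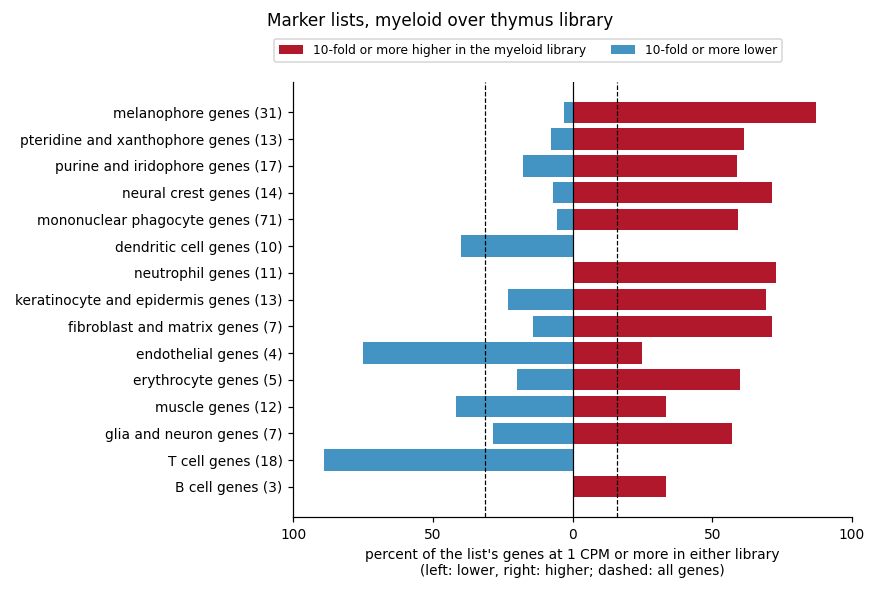
Percent of each marker list's genes that reached 1 CPM in at least one library (number in brackets) that were at least 10-fold higher (right) or lower (left) in the myeloid library than in the thymus library. Dashed lines are the values over all 15139 genes, 15.8% and 31.3%, and the melanophore list is highest on the right with 27 of 31 genes. The lists include the members, which are at least 10-fold higher by the rule that chose them.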

How the data were processed

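The authors deposited raw read counts per gene, made with htseq-count, for 1 myeloid and 1 thymus library. The methods in the study name Cutadapt, TopHat, GRCz10 and FPKM, whereas the submitters' processing notes name cutadapt, STAR 3.0, HTSeq and GRCz11. The annotation, strand setting and treatment of multi-mapped reads are not given in the sources used here. Libraries were made from 1 ng of RNA with a SMART-Seq kit and Nextera XT. The 5 summary rows of the thymus table (28.4% of its reads) were left out. The myeloid table held no summary rows, so its share of unassigned reads is not known. Reads were found on 19115 genes in the myeloid library and on 22548 in the thymus library. The methods give the thymus fish another age than the labels' 6 weeks.

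CPM was computed from the reads on genes, which favor long genes, so levels of different genes rank reads and not molecules. Symbols were found for 29201 identifiers and 74 members, and are printed in lower case. Ratios were computed against 3 reads where the thymus library had none, and otherwise carry exact 95% intervals. Roles came from 15 lists and general knowledge. Members and lists were chosen with earlier results of these data known. All 75 members are named, with list members, neighbors and genes next to the limits. Python 3.11.15, numpy 2.4.6, pandas 2.3.3, scipy 1.17.1, R 4.3.3, edgeR 4.0.16, DESeq2 1.42.0 (size factors only) and matplotlib 3.10.9 were used. The selection was run on simulated counts with members planted inside the same limits, which checks the code only. Levels per length, promoters and proteins were not analysed here.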

Additional observations from a re-analysis of the deposited data

How the results depend on the processing

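The number of members was 147 at 50 CPM, 33 at 200 CPM and 18 with no thymus read allowed, against 75. It stayed within 1.5 times with TMM (95), DESeq2 size factors (94), totals that leave out the 10 most-read genes (90), 10 thymus reads (102), at least 10 reads in either library (75) and reads summed over names (63), and all 75 remained in the first 5 of these 6. None of those 5 settings could remove a member. The first 3 lower the myeloid total, which raises every myeloid CPM, and 10 thymus reads is a looser limit. Every member had at least 3955 myeloid reads, so the limit of 10 reads could not act on them. The members' share of myeloid reads was 3.83% with TMM and 3.83% with DESeq2, 3.79% without the 10 genes, 4.15% at 50 CPM, 3.07% at 200 CPM, 0.422% with no thymus read, 4.48% with 10 thymus reads and 3.44% summed over names, against 3.65%. At a limit of no thymus read, *tyrp1* is no longer a member. Pigment-cell members numbered 7 at 200 CPM and 2 with no thymus read, against 13. Phagocyte members numbered 11 at 50 CPM, 3 at 200 CPM and 2 with no thymus read, against 6. The others numbered 119, 23 and 14 under these 3 limits, against 56. With TMM, with DESeq2 and without the 10 genes, phagocyte members numbered 9, 8 and 8, against 6. Pigment-cell members numbered 14 in each of these 3 settings, against 13, and the others 72, 72 and 68, against 56. The median log2 ratio over all genes shifted by 0.58 with TMM, 0.54 with DESeq2 and 0.08 without the 10 genes. Of 120 list counts, 108 stayed within 1.5 times and 12 moved further, at a 4-fold limit (3), with TMM (5) and with DESeq2 (4). The levels per length and the sequence features were not run. No paired analysis was possible because each group had 1 library, which also left no replicate to leave out.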
